A study of Homo sapiens with 6 samples.

Results

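The respiratory chain genes were examined in 6 libraries of LX-2, an established line of human hepatic stellate cells: 3 of control cells with the vector alone (LX-2Vector) and 3 of cells that stably overexpress fibroblast activation protein α (LX-2FAP). Both lines came from lentiviral infection with a vector in which a ubiquitin promoter drives the insert and which also carries EGFP and a puromycin resistance gene, and all cells were cultured for 24 hours under the same conditions. Members were chosen by gene symbol, with earlier results of these data known. The choice took subunits of complexes I to V named NDUF, SDH, UQCR, CYC1, COX and ATP5, and the protein genes of the mitochondrial genome. This gave 97 of the 60748 genes in the table, of which 84 were nuclear (37 of complex I, 4 of complex II, 10 of complex III, 14 of complex IV and 19 of complex V) and 13 were mitochondrially encoded (7, 0, 1, 3 and 2). Symbols ending in P and a digit, which mostly mark pseudogenes, were left out (63 rows). The letter of that exclusion also takes out MT-ATP6 and MT-ATP8, which would leave 95 genes, but both are protein genes and were kept.

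Oxidative phosphorylation runs on 5 complexes of the inner mitochondrial membrane. Complex I takes electrons from NADH and complex II from succinate, both pass them through ubiquinone to complex III, cytochrome c carries them on to complex IV, where oxygen is reduced, and complex V (ATP synthase) makes ATP from the proton gradient that complexes I, III and IV build. Apart from complex II, each complex joins subunits encoded in the nucleus with a few encoded by mitochondrial DNA, so its assembly needs both genomes. In liver injury, quiescent stellate cells turn into contractile, matrix-producing cells, a change known to be accompanied by changes in metabolism.

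Total counts ran from 17355700 to 26352060 per library. FAP itself was at 1.85, 2.39 and 2.58 CPM (counts scaled to a common library total after normalisation) in the LX-2Vector libraries and at 618.7, 841.0 and 705.2 CPM in the LX-2FAP libraries, as the labels state. Of 9 stellate cell markers, LRAT was at 0 in every library, and the summed level of the list was 2060.4 to 2173.5 CPM in LX-2Vector and at 2117.6 to 2238.0 CPM in LX-2FAP, with COL1A1, COL3A1 and PDGFRB called lower and VIM called higher. VIM alone had a mean of 1541.5 CPM in LX-2Vector, so it made up most of that sum. DES did not pass the filter on low counts. COL1A2 and ACTA2 had LX-2Vector means of 1.16 and 3.81 CPM, below the 13.3 CPM of SERPINA1 from the hepatocyte list. Marker lists of hepatocytes, leukocytes, endothelial cells and epithelial cells summed to at most 14.8 CPM in any library, and of these lists VWF was the gene called, lower in LX-2FAP. Whether these marker differences bear on the respiratory genes was not tested. Nothing in the labels says that the 3 libraries of a group came from separate cultures, so p-values measure the spread between these libraries, which may be technical.

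The 13 mitochondrially encoded genes stood far above the nuclear ones in FPKM, the deposited measure that divides a count by gene length and by depth. Comparisons between genes depend on the length used, which was 548 bases for NDUFS5 and 19359 for NDUFA10. In LX-2Vector, NDUFA10 had means of 110.3 CPM and 5.76 FPKM, and NDUFS5 had means of 96.6 CPM and 177.9 FPKM. In LX-2Vector, their means ran from 422.6 FPKM for MT-ATP8 to 4143.4 FPKM for MT-ND4L. The 37 nuclear complex I genes ran from 0.545 FPKM for NDUFA7 to 177.9 FPKM for NDUFS5, a ratio of 326.5, with a median of 9.66 FPKM. Medians of the nuclear genes of complexes II, III, IV and V were 20.9, 21.9, 24.4 and 20.7 FPKM. The highest nuclear gene of each was SDHC at 40.1 FPKM, UQCRH at 72.7 FPKM, COX8A at 64.9 FPKM and ATP5F1B, the catalytic β subunit of ATP synthase, at 179.4 FPKM.

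**Figure D1:**
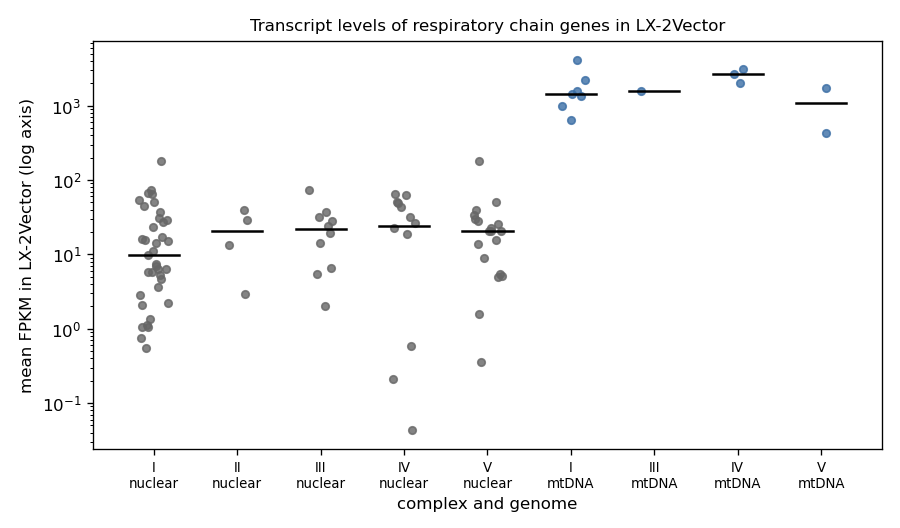
Mean FPKM over the 3 LX-2Vector libraries (log axis) of each respiratory chain gene, by complex and by the genome that encodes it. Points are genes, bars are medians over all genes of the class, and genes at 0 are not drawn. The mitochondrially encoded genes lie between 422.6 and 4143.4 FPKM, above every nuclear gene.

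Some of these levels are uncertain, since many of these genes share exons or sequence with neighbours or copies. In GENCODE release 29, 12 of the 84 nuclear members shared at least 20% of their words of 75 bases with another gene's transcripts, NDUFB8 (46% shared), NDUFS7 (40.4%) and NDUFA1 (38.6%) most. The 12 had a median of 2.53 FPKM in LX-2Vector, and the other 72 a median of 17.9 FPKM. How the authors assigned reads that touch 2 genes is not stated, and its part in these levels was not tested. Gene lengths implied by the deposited values equalled the merged exon lengths of GENCODE release 29 for 35 of the 97 members. Sharing in the annotation used for counting may therefore differ. Of the mitochondrial genes, MT-CO1 shared 36.6% of its words with the nuclear copy MTCO1P12, MT-ND2 shared 34.4% with MTND2P28 and MT-ATP6 shared 28% with MTATP6P1. Those copies had at most 0.447%, 4.98% and 17.3% of the counts of the mitochondrial gene in any library.

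Of the 97 members, 92 passed the filter on low counts and were tested. The 5 that did not were the complex IV isoforms COX6A2, COX7A1, COX7B2 and COX8C, known from heart and skeletal muscle or testis, and ATP5MGL, a relative of the complex V subunit gene ATP5MG. COX6A2 had no count in any library, and none of the other 4 exceeded 0.469 CPM. Of the 92, 2 were called different between LX-2FAP and LX-2Vector, both higher (edgeR quasi-likelihood test, Benjamini-Hochberg adjusted p under 0.05 over all 18275 tested genes). The background was 5.29% of all tested genes called, 2.57% higher and 2.73% lower, so 2 of 92 was not above it. The DESeq2 Wald test, run as an alternative, called 6 members: these 2, ATP5F1A, NDUFA5 and SDHB on the higher side, and MT-ND6 on the lower side, beside 8.58% of the genes to which it gave an adjusted p. Before adjustment 21 members had a p under 0.05, 16 higher and 5 lower, beside 22.2% of all tested genes (10.5% higher and 11.6% lower). CPM values of the groups did not overlap for 19 members, 14 higher and 5 lower, against 26.4% of all tested genes (13.0% higher and 13.4% lower).

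The sizes were small throughout. For 64 of the 92 members the 95% interval of the fold change lay within 1.2-fold in either direction, and for 89 within 1.5-fold. The 3 whose interval was wider, NDUFA13, NDUFA7 and COX6B2, were all counted at low levels. COX6B2 was the only member whose estimate itself was beyond 1.2-fold.

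The nuclear genes leaned towards LX-2FAP by a small amount. The log2 fold change was positive for 56 of the 79 tested nuclear genes (70.9%), with a median of 0.06, beside 47% positive and a median of -0.01 over all tested genes. The 8186 tested genes whose mean CPM lay in the central range of the nuclear members (7.69 to 111 CPM) had 50.5% positive and a median of 0.00. In bulk RNA, a difference in a part of the cells and a smaller one in all cells cannot be told apart. The libraries did not divide by group in this respect. Relative to the LX-2Vector mean, the median nuclear member stood at 0.06, 0.01 and -0.06 (log2) in LX-2Vector replicates 1 to 3 and at 0.01, 0.09 and 0.10 in LX-2FAP replicates 1 to 3, so LX-2FAP replicate 1 lay among the controls. Summed over the 84 nuclear genes, LX-2Vector libraries had 4582.0 ± 183.0 CPM and LX-2FAP libraries 4827.4 ± 108.2 CPM (mean ± SD of 3), 5.36% higher, with 4748.5 CPM in the highest LX-2Vector library above the 4702.8 CPM of the lowest LX-2FAP library. The summed difference was 8.08% for complex V, 7.62% for complex II, 4.47% for complex III, 3.42% for complex IV and 3.41% for complex I, and differences between complexes were not tested.

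**Figure D2:**
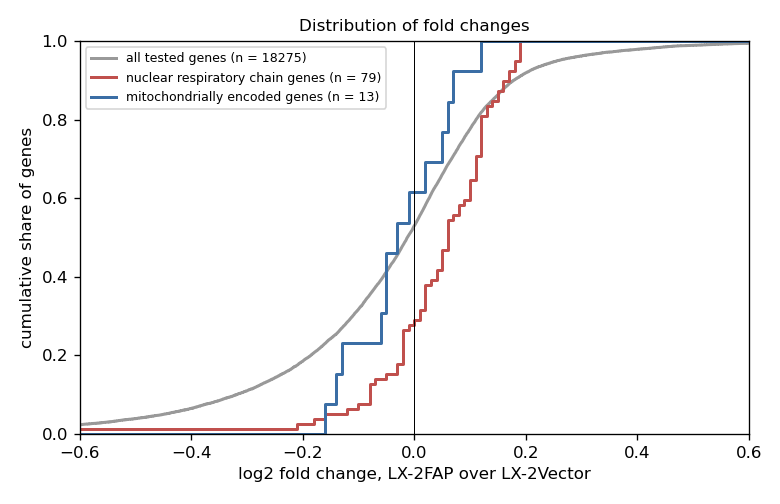
Cumulative share of genes (vertical axis) by log2 fold change of LX-2FAP over LX-2Vector (horizontal axis) for all 18275 tested genes, the 79 tested nuclear respiratory chain genes and the 13 mitochondrially encoded genes. The nuclear curve crosses 0 with 70.9% of its genes to the right, and COX6B2, at -1.58, and some genes of the full set lie outside the axis.

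Complex V held both called genes. ATP5PB (ENSG00000116459, GRCh38 chromosome 1, 111448864 to 111462773, plus strand), which encodes the b subunit of the peripheral stalk that holds the catalytic head still, was at 124.9, 130.0 and 118.4 CPM in LX-2Vector and at 136.7, 144.3 and 146.0 CPM in LX-2FAP. Every LX-2FAP library was above every LX-2Vector library. Its log2 fold change was 0.19 (SE 0.05, edgeR adjusted p = 0.0275). ATP5PB shares 10.3% of its exon bases with WDR77 on the opposite strand, and the strand setting of the counting is not stated. ATP5F1B (ENSG00000110955, GRCh38 chromosome 12, 56638175 to 56646068, minus strand) was at 420.0, 401.8 and 371.0 CPM in LX-2Vector and at 427.9, 465.3 and 449.0 CPM in LX-2FAP. The groups did not overlap, although LX-2FAP replicate 1 was only just above LX-2Vector replicate 1. Its log2 fold change was 0.17 (SE 0.05), and its edgeR adjusted p of 0.04995 was just inside the threshold. Neither call held in every run with a library left out. ATP5PB was not called without LX-2Vector replicate 1 or 3 or LX-2FAP replicate 2 or 3 (log2 fold change 0.17 to 0.20, adjusted p of 0.0612 to 0.176 by edgeR), and ATP5F1B was not called without LX-2Vector replicate 2 or 3 or LX-2FAP replicate 2 or 3 (0.13 to 0.18, adjusted p of 0.0786 to 0.206 by edgeR). Calls over all genes went from 967 to between 26 and 663 in those runs.

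Both genes belong to the catalytic head and the stalks of the enzyme, for which 9 nuclear genes were listed. Of these 9, 8 had a positive log2 fold change and 5 a p under 0.05 before adjustment, all 5 higher and without overlap of the groups, and the median was 0.12. Over all tested genes 47% were positive, 10.5% were higher at such a p and 13.0% were higher without overlap. The other 3 of the 5, picked out after their values were seen, were ATP5F1A, ATP5F1C and ATP5PF. ATP5F1A, the α subunit that alternates with β in the head, was at 370.6, 364.6 and 352.3 CPM in LX-2Vector and at 388.7, 394.6 and 396.0 CPM in LX-2FAP (edgeR log2 fold change 0.12, SE 0.04, adjusted p = 0.0796). ATP5F1C, the γ subunit that turns inside the head, had a log2 fold change of 0.14 (adjusted p = 0.109 by edgeR), and ATP5PF, a peripheral stalk subunit, one of 0.16 (adjusted p = 0.0737 by edgeR). ATP5PO, the stalk subunit that confers oligomycin sensitivity, was the member of the 9 with a negative value, -0.08 (SE 0.09). The remaining ATP5F1D, ATP5F1E and ATP5PD lay between 0.05 and 0.06, with overlapping groups.

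**Figure D3:**
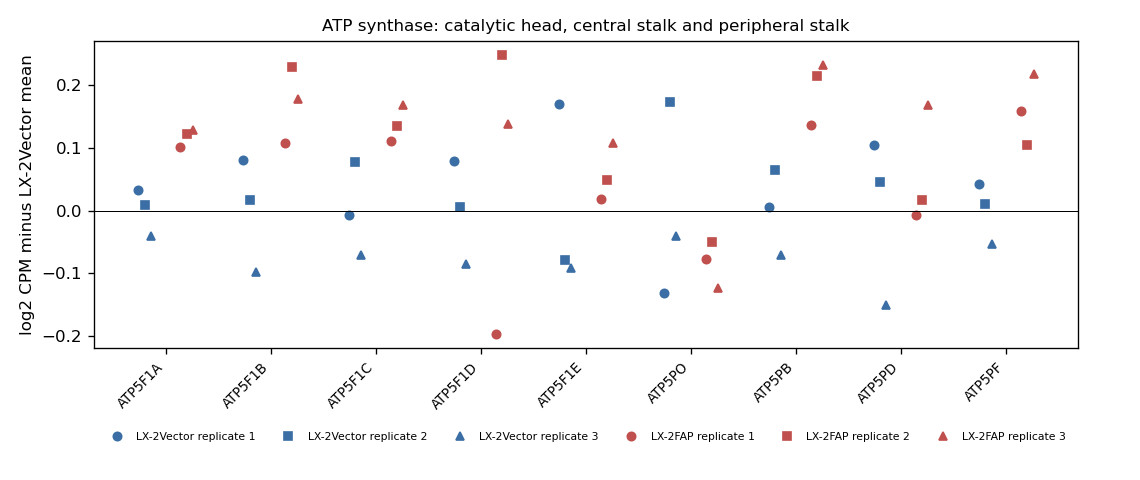
Log2 CPM of each library minus the LX-2Vector mean of that gene (vertical axis) for the 9 nuclear genes of the catalytic head and stalks of ATP synthase. Blue symbols are LX-2Vector and red symbols LX-2FAP, with circles, squares and triangles for replicates 1, 2 and 3. In ATP5F1A, ATP5F1B, ATP5F1C, ATP5PB and ATP5PF all red symbols lie above all blue ones.

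No nuclear gene listed for the membrane part of ATP synthase was called by edgeR or DESeq2. That list leaves out ATP5PB, which was counted with the stalks. The 3 genes ATP5MC1, ATP5MC2 and ATP5MC3 encode the same mature c subunit of the proton-driven ring and had log2 fold changes of 0.02, -0.08 and 0.10. ATP5MC2, the lowest of complex V, was at 83.1, 80 and 76.7 CPM in LX-2Vector and at 78.7, 74 and 73.5 CPM in LX-2FAP, and the groups overlapped. The 5 tested accessory genes of the membrane part ranged from -0.02 for ATP5ME to 0.19 for ATP5MG, with a median of 0.12 and 4 of 5 positive, and none had a p under 0.05 before adjustment. The difference between the head and stalks and the membrane part was not tested. ATP5IF1, the inhibitor that stops ATP synthase from running in reverse, was at -0.02 (SE 0.06).

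Complex II, the one complex without a mitochondrially encoded subunit, gave 3 positive values of 4 and no call by edgeR, while DESeq2 called SDHB. SDHB, the iron-sulfur subunit (ENSG00000117118, GRCh38 chromosome 1, 17018722 to 17054170, minus strand), was at 67.6, 67.1 and 63 CPM in LX-2Vector and at 71, 76.7 and 76 CPM in LX-2FAP. All 3 LX-2FAP libraries were above all 3 controls, and the log2 fold change was 0.18 (SE 0.05, edgeR adjusted p = 0.0518, just outside the threshold, and adjusted p = 0.0393 by DESeq2). SDHA, the flavoprotein that oxidises succinate, was at 26.6, 25.1 and 24.3 CPM against 24.7, 23.2 and 24.2 CPM, with a log2 fold change of -0.08 (SE 0.07). The membrane anchors SDHC and SDHD were at 0.08 (SE 0.05) and 0.15 (SE 0.07), with overlapping groups.

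In complex I, none of the 37 nuclear genes was called by edgeR and 1, NDUFA5, by DESeq2. By edgeR, 24 had a positive log2 fold change and 7 a p under 0.05 before adjustment, 6 of them higher. Over all tested genes 22.2% had such a p, with 10.5% higher. The 7 nuclear core subunits, which hold the flavin and the iron-sulfur clusters, had a median of 0.02, and the 29 accessory subunits a median of 0.05. NDUFV1, the NADH-binding core subunit, had the one p under 0.05 among the core genes and was on the lower side. It was at 139.8, 134.5 and 131.7 CPM in LX-2Vector and at 129.3, 119.0 and 125.6 CPM in LX-2FAP, without overlap (edgeR log2 fold change -0.12, SE 0.04, adjusted p = 0.129). NDUFS1, the largest core subunit, was on the other side without overlap, at 183.1, 185.0 and 180.8 CPM against 190.7, 193.6 and 189.9 CPM (edgeR log2 fold change 0.06, SE 0.04, adjusted p = 0.345). Subunits of one electron-transfer arm thus stood on both sides of 0.

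Among the accessory subunits of complex I the highest log2 fold change was that of NDUFA9, which was at 10.3, 11.8 and 10.9 CPM in LX-2Vector and at 12.2, 12.5 and 12.6 CPM in LX-2FAP (0.19, SE 0.09, edgeR adjusted p = 0.214). The smallest p in complex I was that of NDUFA5, at 83.9, 88.5 and 90.2 CPM against 93.6, 100 and 100.9 CPM (0.17, SE 0.05, edgeR adjusted p = 0.0536, called by DESeq2). Groups did not overlap in either gene. NDUFS4, a subunit whose loss is a known cause of Leigh syndrome, was at 33.6, 34.1 and 34.4 CPM in LX-2Vector and at 37.2, 37.3 and 38.8 CPM in LX-2FAP (0.15, SE 0.05, edgeR adjusted p = 0.113). The lowest value was that of NDUFA13, at -0.21 (SE 0.18), from 1.76 to 2.3 CPM in LX-2Vector and at 1.62 to 1.83 CPM in LX-2FAP. The groups overlapped, and the 95% interval of NDUFA13, -0.60 to 0.18, spanned 0. NDUFS5, the nuclear complex I gene with the highest FPKM, was at 107.6, 96.9 and 85.2 CPM against 94.5, 98.3 and 100.6 CPM (0.02, SE 0.07). NDUFA4, named for complex I but known as a subunit of complex IV, was at 0.11 (SE 0.06).

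**Figure D4:**
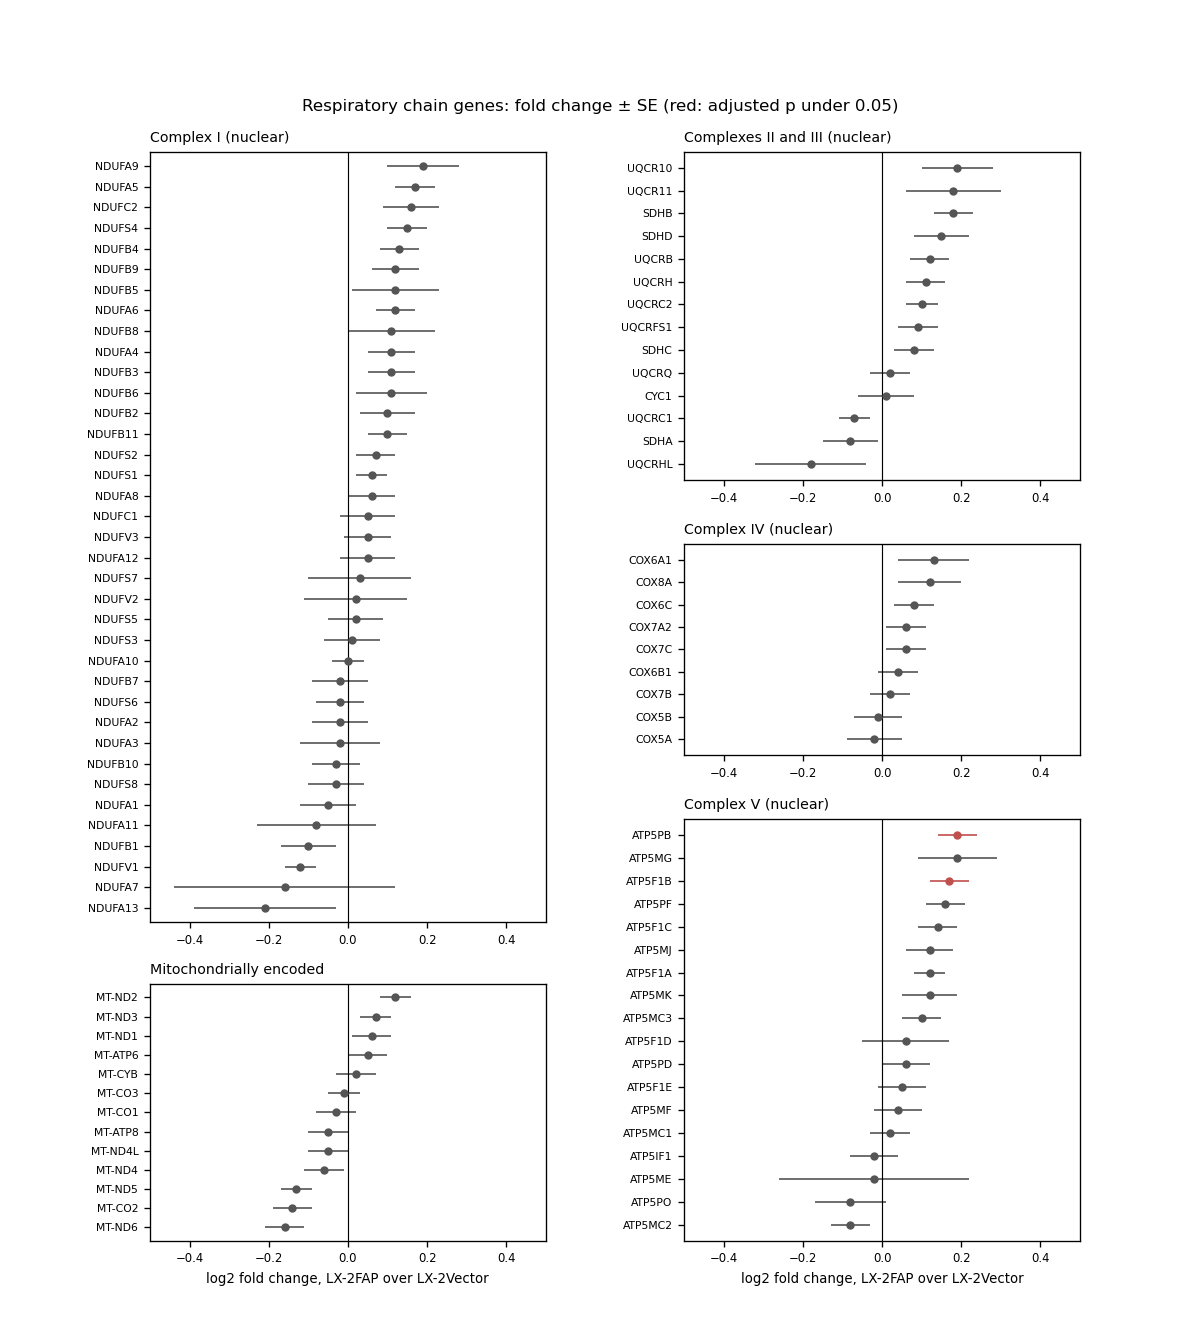
Log2 fold change of LX-2FAP over LX-2Vector (points, with bars of 1 SE from edgeR) for the tested respiratory chain genes, by complex and genome. ATP5PB and ATP5F1B, the 2 genes with an adjusted p under 0.05, are in red, all points drawn lie between -0.21 and 0.19, and COX6B2 (-1.58) is left out of the panel for scale.

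Complex III had 8 positive values among 10 genes and no call by edgeR or DESeq2. UQCRC2, UQCRB and UQCRH had a p under 0.05 before adjustment, all higher, with log2 fold changes of 0.10, 0.12 and 0.11. Such a p on the higher side was found in 10.5% of all tested genes. The highest value was that of UQCR10, at 14.3, 14.7 and 12 CPM in LX-2Vector and at 15.5, 16.6 and 14.6 CPM in LX-2FAP, where LX-2FAP replicate 3 lay below LX-2Vector replicate 2 (0.19, SE 0.09, edgeR adjusted p = 0.236). The lowest was UQCRHL, an intronless copy of the hinge protein gene UQCRH, at 4.34, 4.78 and 3.94 CPM against 4.29, 3.44 and 3.67 CPM (-0.18, SE 0.14). UQCRHL and UQCRH share 4.94% and 6.72% of their words, so reads can be exchanged between them. The nuclear catalytic subunits, cytochrome c1 (CYC1) and the Rieske protein (UQCRFS1), were at 0.01 (SE 0.07) and 0.09 (SE 0.05).

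In complex IV, the 9 nuclear genes expressed in most tissues lay between -0.02 for COX5A and 0.13 for COX6A1, and none had a p under 0.05 before adjustment or groups without overlap. COX6A1 was at 29.5, 31.2 and 28 CPM in LX-2Vector and at 27, 35 and 35.3 CPM in LX-2FAP, where replicate 1 was the lowest of all 6 libraries. COX8A was at 30.4, 34.5 and 30.3 CPM against 30.6, 37.8 and 35.2 CPM, and these groups overlapped too. The tenth tested gene was COX6B2, the testis isoform of COX6B1, at 0.604, 0.625 and 1.08 CPM in LX-2Vector and at 0.416, 0.0555 and 0.238 CPM in LX-2FAP. All 3 LX-2FAP libraries were below the controls (edgeR log2 fold change -1.58, SE 0.45, adjusted p = 0.0515), at a level near the filter, and 24% of COX6B2 words are shared with AC020922.1. The widely expressed COX6B1 was at 0.04 (SE 0.05).

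Each of 3 short letter runs, not used in the choice by symbol, was more frequent in promoters of nuclear members than over all promoters. Each was still found in a minority of the member promoters. The runs were settled on after longer forms had been searched, and their frequencies were not tested. RefSeq promoters (GRCh38.p14, 250 bases before to 50 after the start) were at hand for 67 of the 84, and the 3 runs were searched on both strands. TGCGCA, the core of the site of NRF1, a factor known for respiratory genes, was found in 20 of the 67 (29.9%), beside 8.42% of all 27305 promoters and 13% of the 11653 promoters of tested genes. CCGGAAG, the core site of ETS factors such as GABP, was found in 19 (28.4%), beside 10.7% and 18.3%. AAGATGG, the front of the activating YY1 site, was found in 16 (23.9%), beside 6.06% and 7.23%. In none of the member promoters did runs of 2 kinds overlap, and 38 (56.7%) held at least 1 of the 3, beside 22.2% and 33.2%. The promoters of ATP5PB, which was called, and of SDHB and NDUFA9, with the highest log2 fold change in complexes II and I, are given because they show the runs singly and together. They are ATP5PB (chr1:111449214-111449513, plus strand), NDUFA9 (chr12:4648864-4649163, plus strand) and SDHB (chr1:17053983-17054282, minus strand), 5′ to 3′, with each found run, on either strand, in capitals.
ATP5PB: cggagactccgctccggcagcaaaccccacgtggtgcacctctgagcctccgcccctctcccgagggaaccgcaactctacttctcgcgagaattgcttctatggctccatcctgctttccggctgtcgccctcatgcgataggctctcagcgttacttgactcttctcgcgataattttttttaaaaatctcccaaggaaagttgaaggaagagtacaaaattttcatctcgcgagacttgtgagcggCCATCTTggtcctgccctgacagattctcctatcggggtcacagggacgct
NDUFA9: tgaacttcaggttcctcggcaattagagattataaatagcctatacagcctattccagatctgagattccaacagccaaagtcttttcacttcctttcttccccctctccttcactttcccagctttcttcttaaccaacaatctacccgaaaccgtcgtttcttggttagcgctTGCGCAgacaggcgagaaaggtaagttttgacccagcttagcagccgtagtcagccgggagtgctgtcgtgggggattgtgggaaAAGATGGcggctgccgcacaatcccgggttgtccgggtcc
SDHB: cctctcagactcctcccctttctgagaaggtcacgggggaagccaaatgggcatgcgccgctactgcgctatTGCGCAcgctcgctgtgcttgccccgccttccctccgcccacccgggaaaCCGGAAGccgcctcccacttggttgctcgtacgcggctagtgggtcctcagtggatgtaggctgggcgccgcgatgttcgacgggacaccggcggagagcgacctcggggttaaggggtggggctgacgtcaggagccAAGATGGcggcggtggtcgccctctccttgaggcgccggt
The SDHB promoter held all 3 runs, NDUFA9 those of NRF1 and YY1, and ATP5PB that of YY1 alone, on the reverse strand. The promoter of UQCR10, with the highest log2 fold change in complex III (0.19), held none of the 3 and is not printed. For ATP5F1B, the other called gene, no promoter was at hand. In NDUFA9 and SDHB the YY1 run begins 10 bases after the start, inside the transcribed stretch, and in ATP5PB it spans the start. A match is a match of letters and does not show that a factor was bound. Fold changes by run are given with no test. The median log2 fold change was 0.06 over the 19 tested members with the NRF1 run and 0.05 over the 45 without, 0.06 and 0.05 for ETS (19 and 45), and 0.08 and 0.05 for YY1 (16 and 48). Over the 27 tested members with none of the 3 runs it was 0.02, with 16 positive.

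The mitochondrially encoded genes did not share the lean of the nuclear ones. None of the 13 was called by edgeR, while DESeq2 called MT-ND6 lower. By edgeR, 4 had a p under 0.05 before adjustment, beside 22.2% of all tested genes. Of the 13, 5 had a positive and 8 a negative log2 fold change, and the median was -0.03. They took 2.1% ± 0.109 of all counts in LX-2Vector and 2.02% ± 0.098 in LX-2FAP (SD, n = 3 each), a difference smaller than the spread within a group. The share was 2.228%, 2.023% and 2.062% in LX-2Vector replicates 1 to 3 and 2.135%, 1.971% and 1.96% in LX-2FAP replicates 1 to 3, so replicate 1 was the highest in both groups. The ribosomal RNAs of the mitochondrion, MT-RNR1 and MT-RNR2, were at 0.06 and -0.07.

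The 4 genes with a p under 0.05 before adjustment were MT-ND6, MT-ND5, MT-CO2 and MT-ND2. MT-ND6, the complex I subunit that is the only protein encoded on the light strand (mitochondrial chromosome, 14149 to 14673, minus strand), was at 360.4, 314.4 and 320.7 CPM in LX-2Vector and at 306.9, 295.2 and 286.4 CPM in LX-2FAP. Every LX-2FAP library was below every control (edgeR log2 fold change -0.16, SE 0.05, adjusted p = 0.065, and adjusted p = 0.0444 by DESeq2). Its neighbour on the heavy strand, MT-ND5 (12337 to 14148), was at 2618.9, 2292.5 and 2407.6 CPM against 2283.6, 2221.2 and 2181.0 CPM. Here too the groups did not overlap, though LX-2FAP replicate 1 was only just below LX-2Vector replicate 2 (-0.13, SE 0.04, edgeR adjusted p = 0.0899). MT-CO2, the complex IV subunit that takes electrons from cytochrome c (7586 to 8269), was at 2161.5, 2023.4 and 2069.9 CPM against 2079.7, 1802.2 and 1800.5 CPM. LX-2FAP replicate 1 lay among the controls and the other two below them (-0.14, SE 0.05, edgeR adjusted p = 0.11). MT-ND2, a proton-pumping subunit of complex I (4470 to 5511), was on the higher side, at 1715.8, 1606.8 and 1520.6 CPM against 1781.0, 1818.7 and 1676.7 CPM. Its groups overlapped (0.12, SE 0.04, edgeR adjusted p = 0.115). With single libraries left out, MT-ND2 was called higher without LX-2Vector replicate 1, and MT-ND6 and MT-CO2 were called lower without LX-2FAP replicate 1. The nuclear copy of MT-ND2, MTND2P28, with which it shares words, was at 0.16 (edgeR adjusted p = 0.0848).

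The other 9 mitochondrially encoded genes overlapped between the groups in CPM, and each had an edgeR adjusted p of at least 0.362. The complex I genes of the membrane arm, MT-ND1, MT-ND3, MT-ND4 and MT-ND4L, were at 0.06, 0.07, -0.06 and -0.05. MT-CYB, cytochrome b of complex III, was at 0.02, and the complex IV genes MT-CO1, which holds the oxygen-reducing centre, and MT-CO3 were at -0.03 and -0.01. MT-ATP6, the proton channel of ATP synthase, was at 0.05 and MT-ATP8 at -0.05. MT-ATP8 shares 22.2% of its exon bases with MT-ATP6.

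Ratios between mitochondrial genes within a library do not depend on its depth. Those given here were picked out after their values were seen and are given with no test. MT-ND2 stood higher and MT-ND5 and MT-ND6 lower in LX-2FAP, so a separation of their ratios adds no support. MT-ND5 counts per MT-ND2 count were 1.53, 1.43 and 1.58 in LX-2Vector and 1.28, 1.22 and 1.3 in LX-2FAP. MT-ND6 counts per MT-ND2 count were 0.21, 0.196 and 0.211 against 0.172, 0.162 and 0.171. The libraries of LX-2FAP were thus all lower in both ratios. MT-ND6 per MT-ND5, the adjoining genes of opposite strands, was 0.138, 0.137 and 0.133 against 0.134, 0.133 and 0.131, which overlapped. MT-CO2 counts per MT-CO1 count were 0.503, 0.506 and 0.507 against 0.475, 0.475 and 0.452. These did not overlap, whereas the CPM values of MT-CO2 did.

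**Figure D5:**
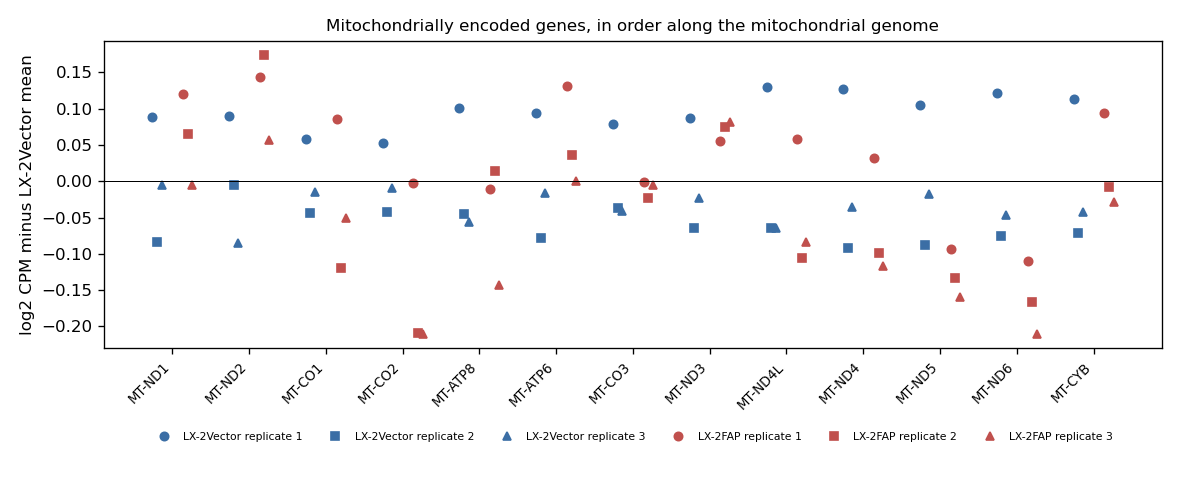
Log2 CPM of each library minus the LX-2Vector mean of that gene (vertical axis) for the 13 mitochondrially encoded genes in their order along the mitochondrial genome. Blue symbols are LX-2Vector and red symbols LX-2FAP, with circles, squares and triangles for replicates 1, 2 and 3. In MT-ND5 and MT-ND6 all red symbols lie below all blue ones.

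Genes that build, supply or regulate the chain were read from lists of the same pathway, and 4 of the 106 tested were called by edgeR, 3 higher and 1 lower, beside 5.29% of all tested genes (2.57% higher and 2.73% lower), so their share was not above the background. Among 6 subunit genes outside the symbol rule, 5 were tested and NDUFAB1 was called. NDUFAB1, the mitochondrial acyl carrier protein that also sits in complex I, was at 42.5, 44.7 and 43.1 CPM in LX-2Vector and at 49.3, 51.9 and 53.6 CPM in LX-2FAP, without overlap (0.25, edgeR adjusted p = 0.0177). COX4I1, the main isoform of the complex IV subunit that the rule does not take in, was at -0.03 (SE 0.05).

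No assembly factor was called: 0 of 15 for complex I, 0 of 13 for complexes II, III and V and 0 of 19 for complex IV by edgeR, with 5, 1 and 3 at a p under 0.05 before adjustment. Over all tested genes 22.2% had such a p. DESeq2 called none of the assembly factors either. The smallest p of each list was that of TMEM126B at 0.14, LYRM7 at 0.16 and COX11, which delivers copper to complex IV, at 0.16. None of the 10 genes of mitochondrial DNA maintenance and transcription was called by edgeR, with 3 at an unadjusted p under 0.05, and SSBP1, the single-strand DNA-binding protein, had the smallest (0.12). None of the 16 genes of mitochondrial RNA processing was called by edgeR, and 9 were higher and 1 lower at an unadjusted p under 0.05, beside 10.5% higher and 11.6% lower over all tested genes. In that list 14 of 16 values were positive, with a median of 0.11, and FASTKD3, an RNA-binding protein of mitochondria, had the smallest p (0.17, at 36.9, 40.1 and 37.7 CPM against 43 CPM in each LX-2FAP library). None of the 8 nuclear regulators was called, with 1 at an unadjusted p under 0.05, GABPB1, the partner of the ETS factor GABPA (0.17). DESeq2 also called none of these 3 lists.

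In the citric acid cycle, which feeds the chain with NADH and succinate, 1 of 14 genes was called by edgeR, beside 5.29% of all tested genes. The list had 9 positive and 5 negative values, with a median of 0.03. By edgeR, 4 were higher and 2 lower at an unadjusted p under 0.05, beside 10.5% higher and 11.6% lower over all tested genes. FH, fumarase, which acts on the product of complex II, was at 62, 59 and 62.6 CPM in LX-2Vector and at 71.5, 67.6 and 69 CPM in LX-2FAP, without overlap (0.18, edgeR adjusted p = 0.0416). Of 5 tested hypoxia-responsive mitochondrial genes, 2 were called by edgeR, in opposite directions, beside 5.29% of all tested genes. In that list 1 value was positive and 4 were negative, with a median of -0.29, beside 47% positive and a median of -0.01 over all tested genes. HIGD1A, a small inner membrane protein that associates with complex IV, was at 57.5, 59.3 and 59.7 CPM against 68.3, 75.9 and 74 CPM (0.31, edgeR adjusted p = 0.00765). PDK1, the kinase that shuts off pyruvate dehydrogenase, was at 55.6, 56.5 and 72 CPM against 52.6, 38.9 and 47.2 CPM (-0.40, edgeR adjusted p = 0.032). Of the 4 calls in these lists, that of FH was lost without any one of the 6 libraries, that of NDUFAB1 without LX-2Vector replicate 1 or LX-2FAP replicate 2 or 3, that of PDK1 without LX-2Vector replicate 3 or LX-2FAP replicate 2 or 3, and that of HIGD1A without LX-2FAP replicate 3. DESeq2 called 5 genes of these lists, FH, NDUFAB1, HIGD1A, CYCS and DLD, and did not call PDK1. It called 8.58% of all genes to which it gave an adjusted p, so this share was not above the background.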

How the data were processed

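RNA was sequenced from LX-2Vector and LX-2FAP cells, 3 libraries each, grouped and numbered by their titles. The labels speak of rRNA-depleted input, whereas the methods of the study add poly(A) selection, and which applied is unsettled. Per the submitters' processing notes, the authors used HISAT2 2.0.5 and featureCounts 1.5.0-p3. They deposited raw counts per gene and FPKM values made from gene length and count. The notes name hg18, but the deposited identifiers belong to a later annotation, so the build is unsettled. Coordinates are those of GENCODE release 29 (GRCh38), in which all 97 members were found by identifier. The strand setting is not given in the sources used here.

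TMM-normalised counts were tested across all genes by edgeR 4.0.16 (quasi-likelihood, default filter with a minimum count of 10 and a minimum total of 15, no covariate), two-sided, with Benjamini-Hochberg adjustment over 18275 genes and calls at an adjusted p under 0.05. An exact permutation test of 3 libraries against 3 has a smallest p of 0.1. The procedure was checked on simulated data, with the pass mark set on larger changes. That check does not show that changes within 1.2-fold, as estimated for every tested member but COX6B2, would be found. Alternatives used DESeq2 1.42.0 and limma 3.58.1 among others.

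Members and gene lists were chosen with earlier results of these data known. Named were the called genes, all mitochondrially encoded genes, the highest and lowest nuclear fold change and the highest FPKM of each complex and, per pathway list, the called genes or else the gene with the smallest p. Other genes given with values (among them NDUFA5, NDUFV1, NDUFS1, NDUFS4, COX4I1 and the remaining genes of complexes II, III and V) were picked after their values were seen, and the promoter letter runs after longer forms had been searched. The authors' own fold changes and p-values were not used.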

Additional observations from a re-analysis of the deposited data

How the results depend on the processing

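The number of the 92 tested members called (2, both higher) depended on the processing. Most counts are followed by the share or number of all genes called in the same fit, 5.29% in the edgeR fit of the report. It was 6 (5 higher, 1 lower; 8.58%) with the DESeq2 Wald test, 5 (4 higher, 1 lower; 5.76%) with DESeq2 size factors, 4 (1 higher, 3 lower; 5.76%) with library size alone, 9 (5 higher, 4 lower; 3.90%) with no filter on low counts, 7 (6 higher, 1 lower; 7.18%) with a trend on gene length removed, and 0 with limma-trend on log2(FPKM + 1) or log2(FPKM + 0.1), each with 14 at an unadjusted p under 0.05 and with 2 genes called of all 18275 (0.0109%), or at an adjusted p under 0.01. Counts of 2 or 3, all higher, came from nuclear genes alone in the normalisation (5.28%), a minimum of 10 counts in every library (6.32%), and a trend on GC content removed (2.43%). Leaving out each library in turn gave 0 to 8 members called, 0 to 5 higher and 0 to 3 lower, with LX-2FAP replicate 1 left out giving 8 (1949 calls over all genes, beside 967 with every library), LX-2Vector replicate 1 giving 2 (391), LX-2Vector replicate 2 giving 1 (663), and LX-2Vector replicate 3 and LX-2FAP replicates 2 and 3 giving 0 (395, 129 and 26). Over all tested genes, same-numbered libraries did not deviate together (correlations of -0.0389, 0.0436 and -0.00962). Replicate 1 nevertheless had the most counts and the highest mitochondrial share in both groups (2.228% in LX-2Vector and 2.135% in LX-2FAP). Whether the numbers mark a pairing is not stated in the labels. With the replicate block, 4 members were called, 2 of them lower (MT-CO2 and MT-ND6; 5.34% of all genes), and with the replicate block and the GC trend removed 1 (0 higher, 1 lower, MT-ND6; 1.11%). Pathway genes called, 4 of 106, were 9 with no filter, 9 with the length trend removed, 0 with either limma-trend fit (21 at an unadjusted p under 0.05), 1 at an adjusted p under 0.01 and 0 to 13 with a library left out. The median log2 fold change stayed within 1 SD of library medians under every alternative, at 0.03 to 0.10 for nuclear members and -0.07 to 0.02 for mitochondrially encoded ones. The mitochondrial share of counts differed by -0.0823 percentage points (LX-2FAP minus LX-2Vector; -0.139 to -0.0205 with a library left out) and the share of summed FPKM by -0.355. Of the named members, MT-CYB was at -0.01 with library size alone and with both limma-trend fits, NDUFS5 at -0.01 and 0.00 there, and MT-CO3 at 0.01 with the length trend removed. With a library left out, values of either sign came for MT-CO1 (-0.08 to 0.02), MT-CO3 (-0.02 to 0.03), MT-ATP8 (-0.08 to 0.01), MT-ND4L (-0.10 to 0.02), MT-ND4 (-0.11 to 0.00), MT-CYB (-0.02 to 0.08) and NDUFS5 (-0.06 to 0.11). The cause of these differences was not tested.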
